A study of Mus musculus with 12 samples.

Results

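The genes described here are hypoxia-induced genes that do not encode glycolytic enzymes. They were picked by name from a list of 35 symbols, and 32 of those symbols had a row among the 15767 genes measured. Lox and Tmem45a are not analysed here, and Ero1l is an older symbol of Ero1a, which was measured once. The list was drawn up with these data known and may have been selected on the libraries numbered 4 against those numbered 1 to 3, so those values are given as a description with no test.

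RNA was sequenced from wild-type Neuro-2a cells, an established mouse neuroblastoma line that grows as neuron-like cells. There were 12 libraries in 3 groups of 4. Cells of the first group received a miR-155 mimic, which is meant to supply that microRNA, cells of the second a miR-155 inhibitor, which is meant to block it, and cells of the third a control small RNA (miR-Con). All groups were transfected in medium without serum or antibiotics, were given complete medium after 4 h and were kept at ordinary incubator conditions to day 2, so no group was untransfected and no label names a low-oxygen treatment. The titles number the libraries of each group 1 to 4 and do not say what the numbers mean. Nor is it stated whether the 4 libraries of a treatment are separate cultures, so every p-value reflects variation among the libraries at hand, part of which may be technical.

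When oxygen is low, prolyl hydroxylases stop marking the alpha subunits of hypoxia-inducible factors (HIF) for degradation through the VHL protein, and the stabilised subunit pairs with ARNT and binds the hypoxia response element, whose core is ACGTG or GCGTG. Its targets reach beyond glycolysis: they include secreted vascular factors, enzymes that modify collagen, carbonic anhydrases, mitochondrial proteins, and regulators of transcription and growth. In solid tumours such as neuroblastoma these genes are widely used as markers of the hypoxic response.

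Promoter sequences from RefSeq (GRCm38.p6) were found for 24 of the 32 genes. The 250 bases before the start are shown for Adm, Ankrd37, Ier3 and Selenbp1, which are among the genes with the greatest differences by library number. The last 3 were taken because the core ACGTG stands in the window, and Adm was added after its values were seen because it differed most. Capitals mark ACGTG and GCGTG on either strand, so that CACGT and CACGC are the same cores read from the other strand. The Adm stretch lies at chr7:110627407-110627656 (plus strand), Ankrd37 at chr8:45999851-46000100 (minus strand), Ier3 at chr17:35821463-35821712 (plus strand) and Selenbp1 at chr3:94932833-94933082 (plus strand).
Adm: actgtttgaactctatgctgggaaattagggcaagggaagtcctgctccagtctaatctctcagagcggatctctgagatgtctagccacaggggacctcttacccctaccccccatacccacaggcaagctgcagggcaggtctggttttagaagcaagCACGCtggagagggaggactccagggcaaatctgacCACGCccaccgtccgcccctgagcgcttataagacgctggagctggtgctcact
Ankrd37: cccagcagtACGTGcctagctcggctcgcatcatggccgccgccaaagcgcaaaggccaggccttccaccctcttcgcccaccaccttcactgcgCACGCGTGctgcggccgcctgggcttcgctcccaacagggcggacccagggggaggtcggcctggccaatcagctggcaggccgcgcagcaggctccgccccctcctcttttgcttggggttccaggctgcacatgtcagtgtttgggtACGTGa
Ier3: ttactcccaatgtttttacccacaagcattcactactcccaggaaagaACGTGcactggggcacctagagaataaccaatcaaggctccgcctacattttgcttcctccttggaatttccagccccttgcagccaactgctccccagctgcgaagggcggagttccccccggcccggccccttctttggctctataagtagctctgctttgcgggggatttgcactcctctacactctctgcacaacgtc
Selenbp1: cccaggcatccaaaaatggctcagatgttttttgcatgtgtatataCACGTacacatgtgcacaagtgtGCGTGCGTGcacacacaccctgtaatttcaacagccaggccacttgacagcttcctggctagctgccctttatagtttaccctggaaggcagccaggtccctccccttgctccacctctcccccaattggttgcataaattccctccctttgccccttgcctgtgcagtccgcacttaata
In these stretches Ankrd37 held 2 ACGTG and 2 overlapping GCGTG cores, Ier3 held 1 ACGTG, Selenbp1 held 1 ACGTG and 2 overlapping GCGTG, and Adm held 0 ACGTG and 2 GCGTG, which begin 90 and 54 bases before the start. Over the window from 250 bases before to 50 after the start, searched on both strands, ACGTG stood in 18 of the 24 genes and in 21.8% of all 27025 genes with a promoter. GCGTG stood in 18 of the 24 and in 35.2% of all genes. CACGTG, the E-box, which contains ACGTG, stood in 3 of the 24 (Ak4, Ppfia4 and Ppp1r3c) and in 8.09% of all genes. These matches describe letters and not occupied sites.

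The labels name miR-155 without its arm, and the arm usually meant, mmu-miR-155-5p, lies at chr16:84714143-84714165 (plus strand, RefSeq, GRCm38.p6). Its seed, bases 2 to 8, is in capitals, and the target sites below show the letters that pair with it in the longest annotated 3′ UTR (GENCODE M21, GRCm38). An 8mer site pairs with the whole seed and has an A opposite base 1, and a 7mer-A1 site lacks the pair at the last seed base. The Stc2 site is at chr11:31357322-31357351 (minus strand), the Bhlhe40 site at chr6:108666873-108666900 (plus strand) and the Mxi1 site at chr19:53372139-53372166 (plus strand).
mmu-miR-155-5p: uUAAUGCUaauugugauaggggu
Stc2 (8mer): cacatggcgttgttctagttcaAGCATTAA
Bhlhe40 (7mer-A1): atttggcttgtcatgtgcctgGCATTAA
Mxi1 (7mer-A1): aggaaaaggcaggataatcagGCATTAA
Stc2 was the only one of the 32 genes with an 8mer site, which 3.01% of 21173 genes have. Rora, which was near 0 in every library, had a 7mer-m8 site, a match to the whole seed without the A (5.6% of genes). Bhlhe40 and Mxi1 had 7mer-A1 sites (4.49% of genes), and 28 of the 32 genes had no site of these kinds (86.9% of genes).

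Levels are given as TPM, a transcript's share of its library after division by gene length, and so can be compared between genes. The libraries held 60695388 to 74200532 counts each, and the 3 numbered 4 held 62389350 to 68734250. Each library had a count for 13669 to 13836 genes. The neuroblastoma markers were all measured and summed to 4244 to 4440 TPM in number 4 and to 4523 to 4901 TPM in numbers 1 to 3, with Th, a defining enzyme of catecholamine synthesis, near 1 TPM. Markers of other cells were scarce. The fibroblast and mesenchymal list summed to 6.89 to 7.35 TPM in number 4 and to 6.13 to 9.9 TPM in numbers 1 to 3. The glial list summed to 4.75 to 5.18 and 3.42 to 5.02 TPM in the same order, and the immune and endothelial list to 2.77 to 3.04 and 1.74 to 2.73 TPM, with Ptprc, which marks leukocytes, at or near 0. These are bulk samples, in which a smaller share of cells with a transcript and less of it per cell cannot be told apart.

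Mean levels over the 12 libraries differed widely between these genes. Ddit4, an inhibitor of mTORC1 signalling, was the most abundant of them at 1456 TPM, and Ier3, an early response gene tied to cell survival, followed at 449 TPM. Nrn1 (208 TPM), Ero1a (159 TPM), Fam162a (142 TPM) and Plod1 (132 TPM) completed the 6 genes above 100 TPM. At the other end, 4 genes lay under 1 TPM: Ppp1r3c at 0.785 TPM, Car9 at 0.392 TPM, Ppfia4 at 0.0528 TPM, and Rora at 0.00281 TPM, where 6 counts in inhibitor 3 were the only ones seen. Rora, a nuclear receptor, did not pass the filter on low counts, so 31 genes entered the fits.

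The levels separated by library number. In 25 of the 31 genes all 3 libraries numbered 4 lay above all 9 numbered 1 to 3, in normalised counts, which 17.9% of all 13014 genes fitted did. In 1 gene, Stc2, they lay below all 9, as did 19.0% of all genes. The libraries overlapped for Plod1, Car9, Ppp1r3c, Ppfia4 and Fam13a. In 16 of the 31 the 3 libraries were both apart and over 2-fold higher, against 1.73% of all genes. Nothing is read from these shares about the list, since its genes may have been selected on this contrast. The summed TPM of the 32 genes was 5519 to 5740 in number 4 and 2573 to 2790 in numbers 1 to 3. The median log2 fold change of number 4 over numbers 1 to 3 was 1.04 for the 31 genes and -0.00418 for all genes fitted.

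**Figure D1:**
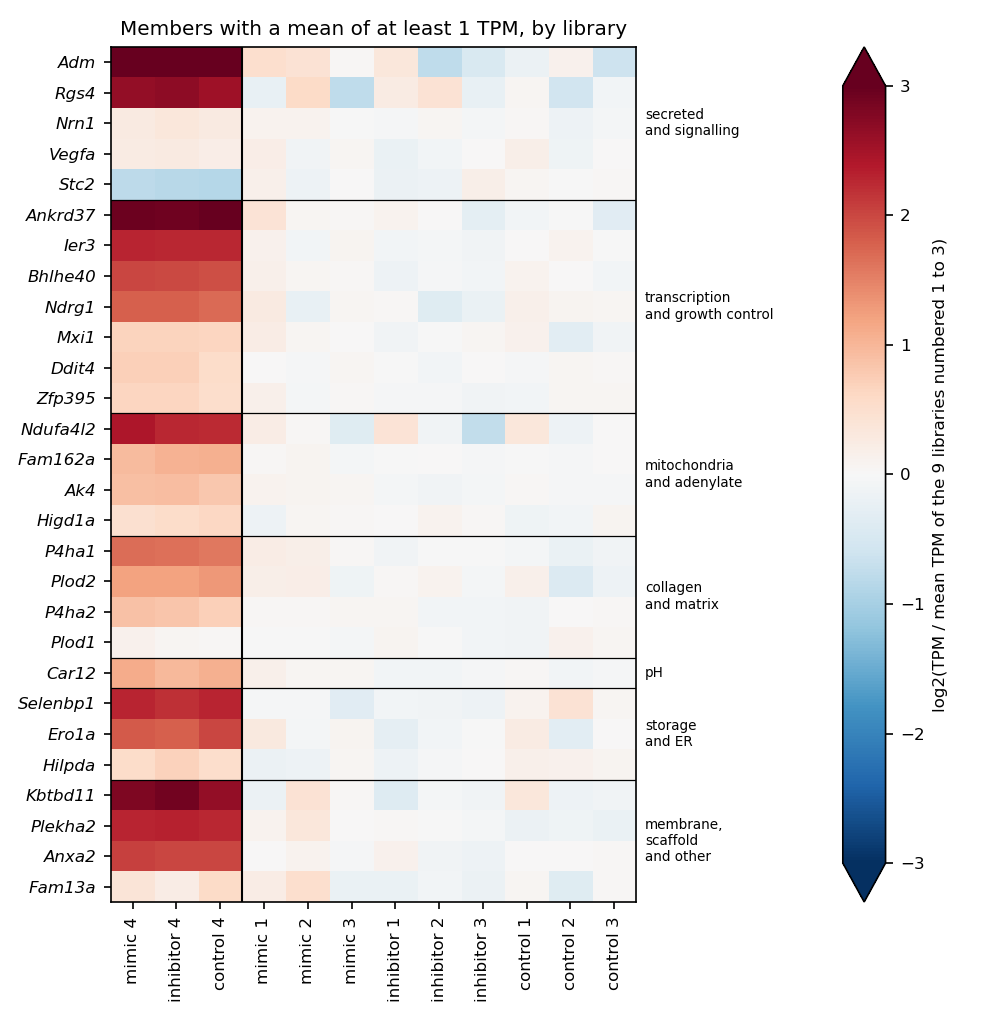
Heat map of the 28 genes with a mean of at least 1 TPM, in rows grouped by role, over the 12 libraries in columns; colour is log2 of the TPM over the mean TPM of the 9 libraries numbered 1 to 3, with the scale ending at 3. In all 3 columns numbered 4 most genes lie above the 9 other columns. The deepest colour is that of Adm, at 147 to 152 TPM in number 4 and 3.45 to 8.18 TPM in numbers 1 to 3.

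Among the secreted and signalling genes, Adm stood furthest apart. Adm encodes adrenomedullin, a vasodilator peptide. It measured 152 TPM in mimic 4, 147 TPM in inhibitor 4 and 152 TPM in control 4, against a lowest value of 3.45, a median of 5.91 and a highest of 8.18 TPM in the 9 libraries numbered 1 to 3. The 3 libraries numbered 4 were close to each other and far above the rest. The log2 fold change was 4.73 (SE 0.178), or 26.5-fold, and ranked 2 among all 13014 genes. The SE, here and for the genes below, reflects only the spread among these libraries. It is no test and does not say whether the difference would recur. Rgs4, which speeds GTP hydrolysis by G protein alpha subunits, measured 8.66 TPM in mimic 4, 8.98 TPM in inhibitor 4 and 8.16 TPM in control 4, against 0.823 to 2.08 TPM (median 1.31) in numbers 1 to 3, a log2 fold change of 2.66 (SE 0.2).

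Vegfa and Nrn1 were abundant and differed little. Vegfa, the main angiogenic growth factor among HIF targets, measured 109 to 113 TPM in number 4 and 81.7 to 109 TPM (median 94.4) in numbers 1 to 3, a log2 fold change of 0.26 (SE 0.0632). In TPM its libraries met at 109, while in normalised counts they were apart. Nrn1, which encodes neuritin, a membrane-anchored promoter of neurite growth, measured 237 to 248 TPM in number 4 and 178 to 212 TPM (median 194) in numbers 1 to 3, a log2 fold change of 0.31 (SE 0.0376).

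Stc2 differed in the other direction. It encodes stanniocalcin 2, a secreted glycoprotein. It measured 29.8 TPM in mimic 4, 29.1 TPM in inhibitor 4 and 28.6 TPM in control 4, against 45.4 to 58.1 TPM (median 52.3) in numbers 1 to 3. Every library numbered 4 was below every other, with a log2 fold change of -0.80 (SE 0.0816).

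All 7 genes of transcription and growth control that were fitted were higher in every library numbered 4, beside 17.9% of all 13014 genes. Their log2 fold changes were 0.62 to 2.99, with a median of 1.78. Ankrd37, a small ankyrin-repeat protein used as a hypoxia marker, measured 79.6 TPM in mimic 4, 78.8 TPM in inhibitor 4 and 85.1 TPM in control 4, against 8.22 to 13.7 TPM (median 10.4) in numbers 1 to 3. That is a log2 fold change of 2.99 (SE 0.0985), 7.97-fold. Ier3 was the most abundant of the strongly different genes. It measured 1123 TPM in mimic 4, 1097 TPM in inhibitor 4 and 1099 TPM in control 4, against 212 to 252 TPM (median 227) in numbers 1 to 3, a log2 fold change of 2.29 (SE 0.0566).

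Bhlhe40, a transcriptional repressor of the clock and of differentiation, averaged 201 ± 4.19 TPM in number 4 (SD, n = 3) and 51.2 ± 3.4 TPM in numbers 1 to 3 (SD, n = 9), a log2 fold change of 1.99. Ndrg1, a stress-responsive protein linked to differentiation, averaged 32.9 ± 1.21 and 9.74 ± 1.32 TPM in the same order, a log2 fold change of 1.78. The rest of this role differed by less than 2-fold. Mxi1, an antagonist of MYC, averaged 27.9 ± 0.268 TPM in number 4 and 17.7 ± 1.83 TPM in numbers 1 to 3. Ddit4 averaged 2013 ± 119 and 1270 ± 39.6 TPM in that order, and the zinc finger factor Zfp395 averaged 47.7 ± 2.34 and 31.5 ± 1.87 TPM. Their log2 fold changes were 0.68, 0.68 and 0.62.

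**Figure D2:**
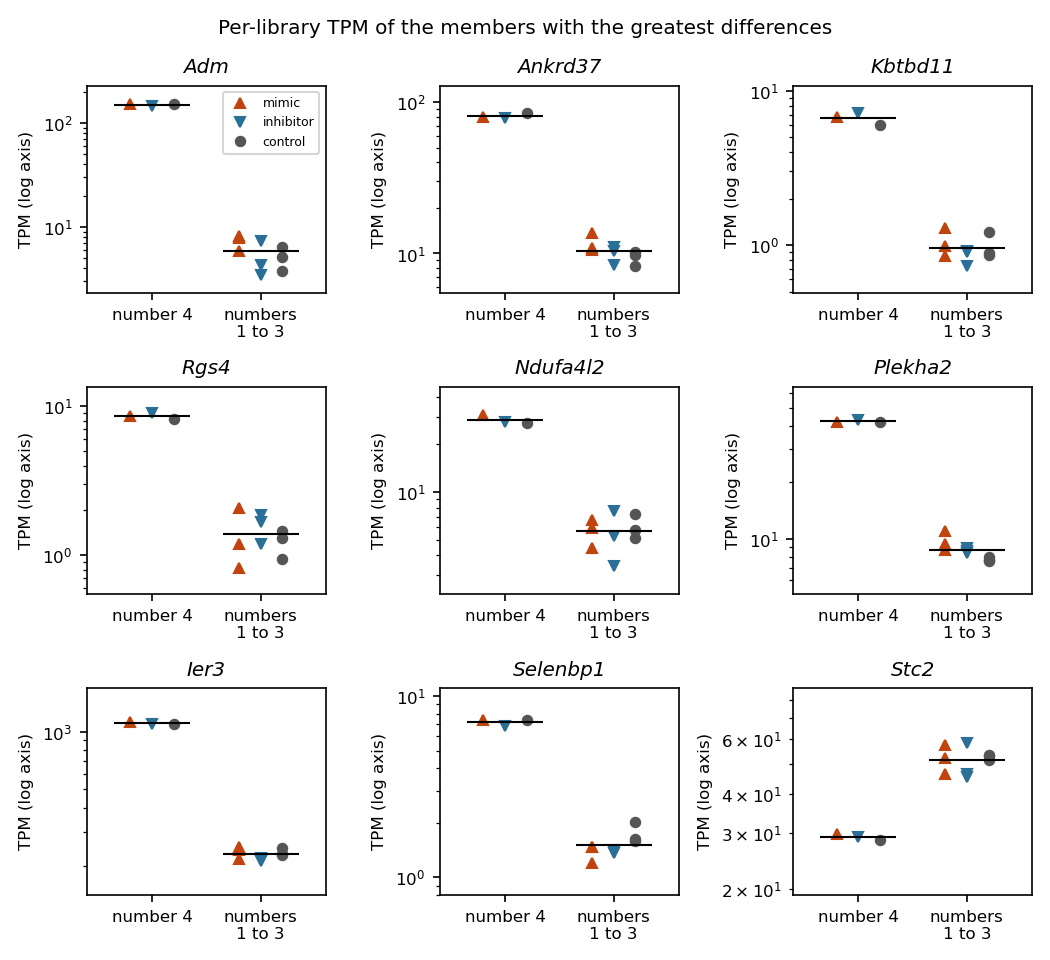
TPM in each library (points; log axis) of the 9 genes with the greatest differences by number, with mimic, inhibitor and control marked by symbol and colour and the mean of each set as a line. In all but Stc2, whose values are 28.6 to 29.8 TPM in number 4 and 45.4 to 58.1 TPM in numbers 1 to 3, the number 4 points lie above the rest.

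The 4 mitochondrial and adenylate genes were all higher in every library numbered 4, beside 17.9% of all 13014 genes. Ndufa4l2 encodes a mitochondrial protein that lowers complex I activity in hypoxia. It measured 30.7 TPM in mimic 4, 27.6 TPM in inhibitor 4 and 27.2 TPM in control 4, against 3.42 to 7.62 TPM (median 5.74) in numbers 1 to 3, a log2 fold change of 2.34 (SE 0.179). The other genes differed less. Fam162a, a mitochondrial protein with a role in cell death, averaged 229 ± 9.63 TPM in number 4 and 113 ± 3.36 TPM in numbers 1 to 3 (log2 fold change 1.04). Ak4, a mitochondrial adenylate kinase, averaged 34.8 ± 1.62 and 18.9 ± 0.942 TPM in the same order (0.90), and Higd1a, which associates with respiratory chain complexes, 45.8 ± 2.21 and 31.2 ± 1.98 TPM (0.57).

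Of the 4 collagen-modifying enzymes measured, 3 were higher in every library numbered 4, beside 17.9% of all 13014 genes. The prolyl 4-hydroxylase subunits P4ha1 and P4ha2 stabilise the collagen triple helix. P4ha1 averaged 167 ± 5.16 TPM in number 4 and 53.6 ± 5.06 TPM in numbers 1 to 3, a log2 fold change of 1.67, and P4ha2 averaged 89.2 ± 5 and 50.9 ± 2.27 TPM, a log2 fold change of 0.83. The lysyl hydroxylase Plod2, which prepares collagen for cross-linking, averaged 85.8 ± 3.47 and 36.4 ± 4.71 TPM in the same order (log2 fold change 1.26). Its relative Plod1 overlapped, at 133 to 142 TPM in number 4 and 121 to 142 TPM in numbers 1 to 3, and its log2 fold change of 0.09 turned to -0.02 under 1 of 21 other settings.

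The carbonic anhydrases are membrane enzymes that help to set the pH outside the cell. Car12 averaged 87.6 ± 4.16 TPM in number 4 and 42.5 ± 2.32 TPM in numbers 1 to 3, a log2 fold change of 1.06. Car9, one of the best known HIF targets, was barely present, at 0.187 to 0.566 TPM in number 4 and 0.208 to 0.656 TPM in numbers 1 to 3, or 12 to 38 counts per library. Its libraries overlapped, and the log2 fold change of 0.14 had an SE of 0.398.

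Among the genes of storage and the endoplasmic reticulum, Selenbp1 and Ero1a differed most. Selenbp1, a selenium-binding methanethiol oxidase, measured 7.39 TPM in mimic 4, 6.84 TPM in inhibitor 4 and 7.37 TPM in control 4, against 1.2 to 2.03 TPM (median 1.47) in numbers 1 to 3, a log2 fold change of 2.28 (SE 0.125). It has a close paralog, Selenbp2, so its counts are uncertain. Ero1a, the oxidase that renews disulfide bond formation, averaged 351 ± 28.3 TPM in number 4 and 95.5 ± 13.6 TPM in numbers 1 to 3 (log2 fold change 1.90). Hilpda, which slows the breakdown of lipid droplets, averaged 90.4 ± 5.52 and 60.3 ± 5.38 TPM in the same order (0.61). Ppp1r3c, which directs a phosphatase to glycogen, overlapped, at 0.817 to 1.68 TPM in number 4 and 0 to 1.07 TPM in numbers 1 to 3.

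The remaining genes encode membrane, scaffold and other proteins. Kbtbd11, a BTB and kelch domain protein, measured 6.7 TPM in mimic 4, 7.14 TPM in inhibitor 4 and 5.97 TPM in control 4, against 0.735 to 1.29 TPM (median 0.897) in numbers 1 to 3, a log2 fold change of 2.81 (SE 0.131). Plekha2, an adaptor that binds phosphoinositides, measured 42 TPM in mimic 4, 43 TPM in inhibitor 4 and 41.7 TPM in control 4, against 7.59 to 11 TPM (median 8.56) in numbers 1 to 3, a log2 fold change of 2.31 (SE 0.0677). Both were apart from the other 9 libraries in all 3 treatments. Anxa2, a calcium-dependent membrane-binding protein, averaged 196 ± 4.16 TPM in number 4 and 48.4 ± 2.96 TPM in numbers 1 to 3 (log2 fold change 2.04). Fam13a overlapped at 1.83 to 2.34 TPM in number 4 and 1.23 to 2.23 TPM in numbers 1 to 3, and Ppfia4, a liprin scaffold protein, overlapped at 0.0481 to 0.0502 and 0 to 0.115 TPM in that order.

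**Figure D3:**
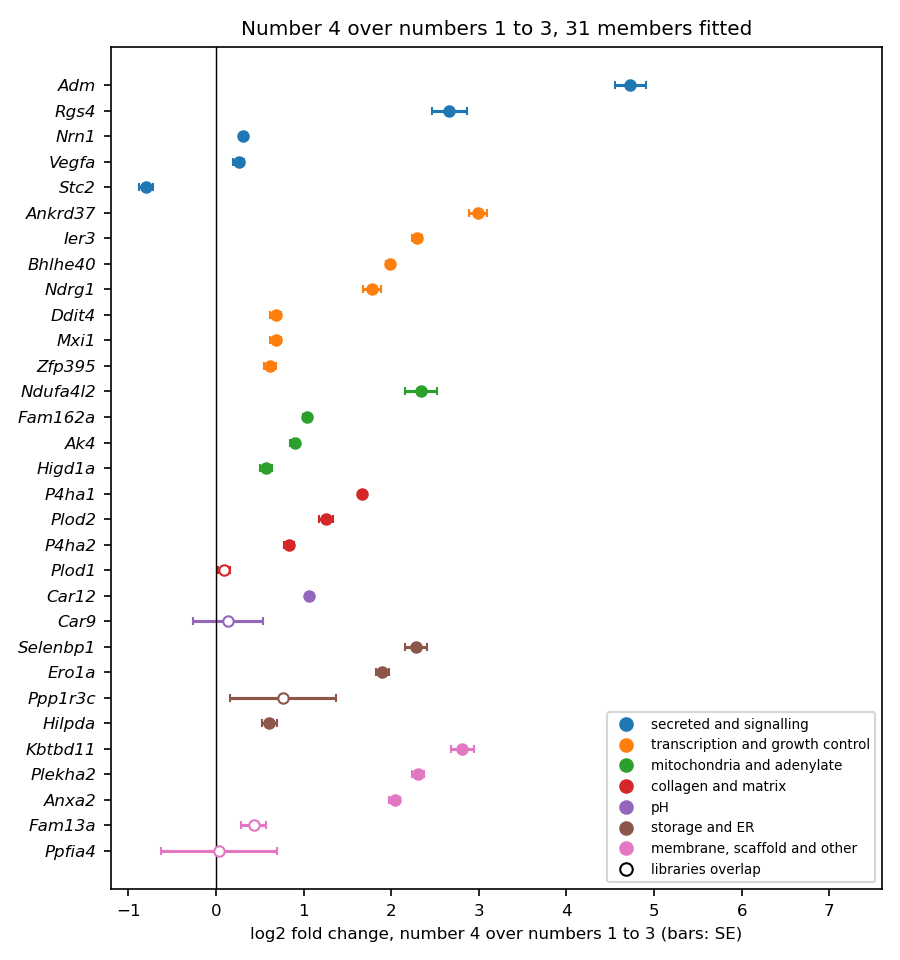
Log2 fold change of number 4 over numbers 1 to 3 for the 31 genes fitted (points; bars are SE from edgeR), coloured by role, with open points where the libraries overlapped. Adm is furthest right at 4.73 and Stc2, at -0.80, is the only gene left of 0. The bars reflect only the spread among these libraries and are no test.

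Strandedness is not stated, and several of these genes share exon bases with a gene on the opposite strand, so reads of the pair cannot be told apart. Of the exon bases of Ankrd37, 22.7% lie in Lrp2bp (0.702 TPM) and 3.7% in Ufsp2 (37.3 TPM). For Nrn1, 22.3% lie in Fars2 (8.45 TPM), and for Fam162a 19.8% lie in Wdr5b (3.48 TPM). For Ndufa4l2, 2.92% lie in Shmt2, whose mean was 627 TPM against 11.4 TPM for Ndufa4l2 itself. Kbtbd11, Plekha2 and Higd1a share 24.8%, 17.2% and 22.5% with opposite-strand transcripts that have no row of values here. Plekha2 also shares 9.34% with another such transcript.

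The difference by number was present within each treatment. Adm in number 4 was 20.8 times its mean in numbers 1 to 3 within mimic, 29.1 times within inhibitor and 29.8 times within control. For Ankrd37 the ratios were 6.79, 7.91 and 9.01, for Kbtbd11 6.44, 8.4 and 6.06, and for Stc2 0.574, 0.582 and 0.544, in the same order. Whether the ratio differed between treatments was tested jointly with edgeR, a test chosen after the values were seen. It called 0 of the 31 genes, with 0 at an unadjusted p under 0.05 and a smallest adjusted p of 1, and 7 of all genes, or 0.0538%. With 1 library numbered 4 in each treatment, this test rests on the spread among numbers 1 to 3, and its lack of calls does not show that the ratios were alike.

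The mimic was compared with control, the inhibitor with control and the mimic with the inhibitor to ask whether miR-155 shifts these genes. No gene of the list was called in any of the 3 contrasts by edgeR (adjusted p under 0.05), and 0% of all 13014 genes was called in each. The smallest adjusted p among the 31 genes was 1. At an unadjusted p under 0.05 there were 0 of the 31 genes in mimic against control, 1 in inhibitor against control and 0 in mimic against inhibitor, beside 0.546%, 0.515% and 0.592% of all genes. DESeq2 called 0 of the 31 in each, and 2, 0 and 4 of all genes in that order. The median log2 fold change of the 31 genes was 0.0588 in mimic against control, with 23 above 0 and 8 below. It was -0.0052 in inhibitor against control, with 14 above and 17 below. In mimic against inhibitor it was 0.0449, with 22 above and 9 below. Over all genes fitted the medians were -0.0068, -0.00993 and 0.00243 in that order. Many of the 31 genes differed together by number, so these signs are not independent. Nothing is read from the sign counts. The 3 contrasts share libraries.

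With 1 library numbered 4 in each group, the intervals of the genes that differed by number were wide. For Adm the log2 fold change of mimic against control was 0.09, with a 95% interval of -3.58 to 3.76. With number 4 as a term in the fit it was 0.33 (-0.15 to 0.81). Over the 31 genes and 3 contrasts the median width of the interval was 1.8 on the log2 scale with group only and 0.34 with number 4 as a term.

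**Figure D4:**
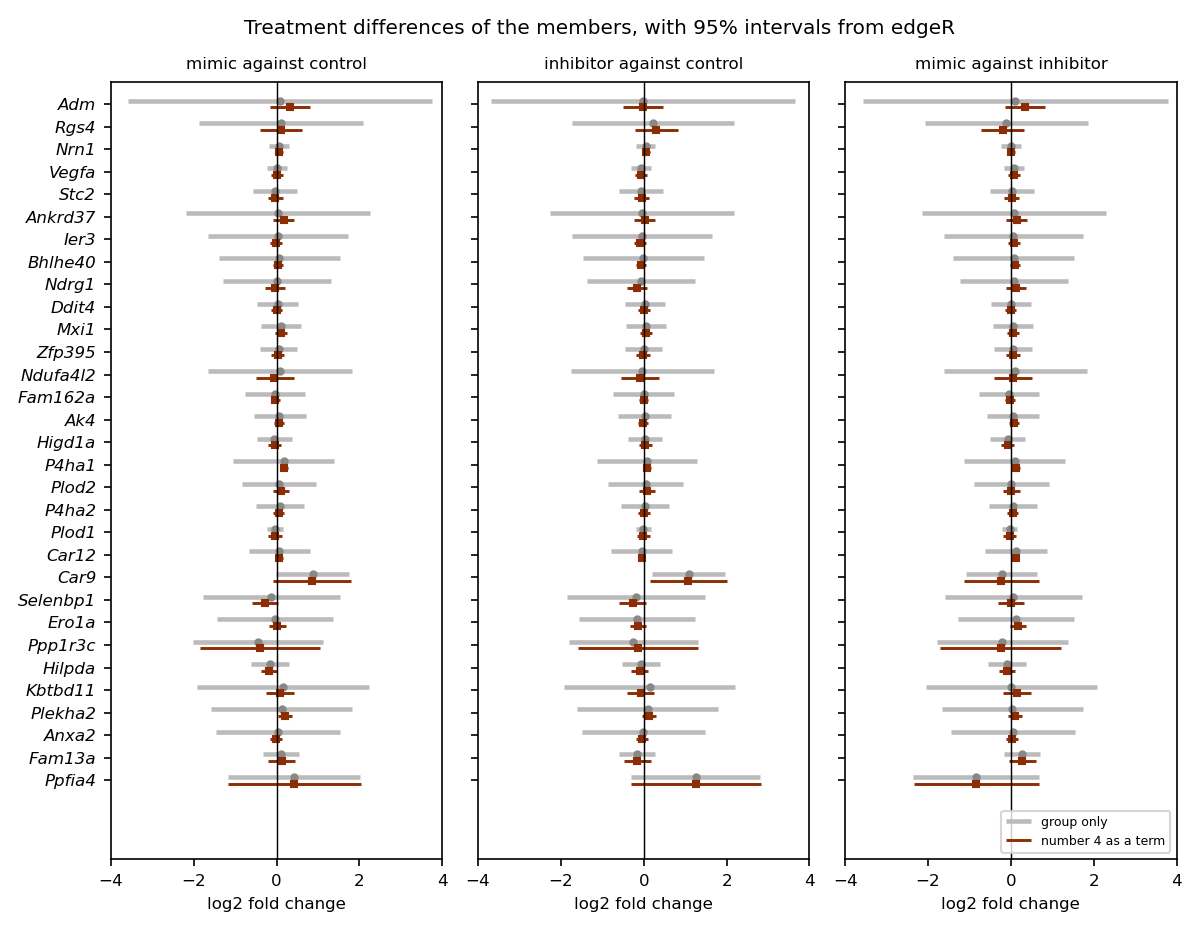
Log2 fold changes of the 31 genes in the 3 treatment contrasts (points) with 95% intervals (lines), from the fit with group only (grey) and with number 4 as a term (brown). With group only, the intervals of the genes furthest apart by number are the widest (Adm in mimic against control, -3.58 to 3.76), and that of Car9 in inhibitor against control, 0.21 to 1.97, lies above 0.

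Car9 had the smallest unadjusted p in both contrasts with control. It measured 0.352, 0.321, 0.534 and 0.54 TPM in mimic 1 to 4, 0.222, 0.656, 0.581 and 0.566 TPM in inhibitor 1 to 4, and 0.229, 0.312, 0.208 and 0.187 TPM in control 1 to 4. In TPM every mimic library was above every control library, while inhibitor 1 lay within the control range. Mimic 2 and control 2 had 21 counts each, and in the normalised counts that were tested mimic and control were not fully apart. Its log2 fold change was 0.87 (SE 0.408) in mimic against control, with an unadjusted p of 0.0542 by edgeR, and 1.09 (SE 0.408) in inhibitor against control, with an unadjusted p of 0.0196 by edgeR. The adjusted p by edgeR was 1 in both, and the exact two-sided permutation test over 8 libraries gave p = 0.0571 in each. In normalised counts the inhibitor library exceeded its control at 4 of 4 numbers and the mimic library did so at 3 of 4. At 12 to 38 counts per library the precision is limited by depth.

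Ppfia4 was also near the floor. It measured 0, 0.0672, 0.0655 and 0.0481 TPM in mimic 1 to 4, 0.115, 0.0893, 0.065 and 0.0502 TPM in inhibitor 1 to 4, and 0.017, 0.0422, 0.0252 and 0.0484 TPM in control 1 to 4. Every inhibitor library was above every control library. Inhibitor 4 and control 4 had 12 counts each, so their order was set by the scaling for library size. Over all libraries the gene had 0 to 30 counts. The log2 fold change of inhibitor against control was 1.25 (SE 0.718, adjusted p of 1 by edgeR), and the exact two-sided permutation test gave p = 0.0286, the smallest it can give with 4 against 4. Adjusted over the 93 permutation tests made, that p was 1. In mimic against inhibitor the log2 fold change was -0.83 (SE 0.701, adjusted p of 1 by edgeR).

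Hilpda and Ppp1r3c were named in mimic against control. Hilpda measured 53.1, 54.4, 63.3 and 87.8 TPM in mimic 1 to 4 and 66.8, 66.5, 64.4 and 86.6 TPM in control 1 to 4, lower in mimic at 3 of 4 numbers. Its log2 fold change was -0.16 (95% interval -0.62 to 0.31), and -0.26 (-0.49 to -0.04) among numbers 1 to 3 alone, where the adjusted p by edgeR was 0.911. Ppp1r3c measured 1.07, 0.739, 0 and 0.927 TPM in mimic 1 to 4 and 0.54, 0.685, 0.732 and 1.68 TPM in control 1 to 4. Mimic 3, with 0 counts, set much of its spread, and the log2 fold change was -0.45 (-2.02 to 1.11); it was 0.0092 without control 4.

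Fam13a and Vegfa were named in mimic against inhibitor. Fam13a measured 1.82, 2.23, 1.37 and 2.05 TPM in mimic 1 to 4, 1.38, 1.48, 1.39 and 1.83 TPM in inhibitor 1 to 4, and 1.64, 1.23, 1.61 and 2.34 TPM in control 1 to 4. The groups overlapped. The log2 fold change was 0.27 (95% interval -0.17 to 0.71) in mimic against inhibitor and -0.16 (-0.60 to 0.28) in inhibitor against control, where it turned to 0.02 without control 4. Vegfa measured 109, 87.8, 97.9 and 112 TPM in mimic 1 to 4 and 81.7, 88.6, 95.4 and 113 TPM in inhibitor 1 to 4, a log2 fold change of 0.08 (-0.16 to 0.32).

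P4ha1, named after its values were seen, had the smallest unadjusted p of the 31 genes in mimic against control once number 4 was set apart. It measured 62.6, 60.3, 55 and 171 TPM in mimic 1 to 4, 50, 53.3, 53 and 169 TPM in inhibitor 1 to 4, and 51.8, 46.7, 49.9 and 161 TPM in control 1 to 4, and mimic was above both other groups at 4 of 4 numbers. With group only, the log2 fold change of mimic against control was 0.17 (95% interval -1.04 to 1.38). With number 4 as a term it was 0.19 (0.10 to 0.28), with an unadjusted p of 0.00067 and an adjusted p of 0.999 by edgeR, so it did not pass over all genes. In that fit 2 of the 31 genes, P4ha1 and Plekha2, had an unadjusted p under 0.05 in mimic against control, 1 (Car9) in inhibitor against control, and 2 (P4ha1 and Car12) in mimic against inhibitor. Over all 13014 genes, 1.71%, 1.38% and 1.23% had one in the same fit and order.

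The genes with a miR-155 site were looked at in mimic against control with number 4 as a term. Stc2, with its 8mer, measured 57.4, 46.3, 52.3 and 29.8 TPM in mimic 1 to 4 and 53.4, 51.5, 52.8 and 28.6 TPM in control 1 to 4. The groups overlapped, and the log2 fold change was -0.03, with a 95% interval of -0.20 to 0.15. For Bhlhe40 it was 0.03 (-0.08 to 0.15) and for Mxi1 0.11 (-0.03 to 0.26). The gene tables do not measure mature miR-155, so the uptake of the agents was not checked here.

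Among the 9 libraries numbered 1 to 3, those numbered 3 were compared with those numbered 1 and 2. No gene of the list was called by edgeR, and 0% of the 13052 genes fitted was. At an unadjusted p under 0.05 there was 1 of the 31 genes and 1.47% of all genes, and DESeq2 called 0 of the 31 and 3 genes in all. The median log2 fold change of the 31 genes was -0.024. Ndufa4l2 measured 4.42, 3.42 and 5.74 TPM in mimic 3, inhibitor 3 and control 3, against 5.17 to 7.62 TPM in the 6 libraries numbered 1 and 2, a log2 fold change of -0.47 (95% interval -0.92 to -0.03). Its unadjusted p was 0.0388 and its adjusted p 1 by edgeR. Ankrd37 measured 10.6, 8.45 and 8.22 TPM in the libraries numbered 3 and averaged 11.5 TPM in number 1 and 10.5 TPM in number 2, with a log2 fold change of -0.27 (-0.55 to 0.0035). Adm measured 5.91, 4.26 and 3.77 TPM in the libraries numbered 3 and averaged 6.91 TPM in number 1 and 5.87 TPM in number 2, with a log2 fold change of -0.46 (-1.05 to 0.14), which did not pass the test. Without control 2 this contrast called 265 of all genes and 0 of the 31.

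Other lists, also chosen with earlier results of these data known, were read beside these genes, again by number with no test. Of all 13014 genes fitted, 17.9% were higher in every library numbered 4 and 19.0% were lower. The counts below describe the lists, and nothing more is read from them. Of 25 further hypoxia-induced genes outside glycolysis that were fitted, 17 were higher in every library numbered 4 and 1 was lower, with a median log2 fold change of 0.484. The most abundant were Sap30, a subunit of a histone deacetylase complex (437 ± 19.2 TPM in number 4 and 318 ± 20.2 TPM in numbers 1 to 3), Hmox1, which degrades heme (382 ± 6.36 and 276 ± 12.6 TPM), Bnip3, a mitophagy receptor (334 ± 14.3 and 70 ± 8.04 TPM), and the glycogen synthase Gys1 (143 ± 9.63 and 123 ± 9.09 TPM, overlapping). Of the 21 genes of glycolysis, 17 were higher and 1 lower, with a median of 0.559. Pkm averaged 1823 ± 97 TPM in number 4 and 1413 ± 81.9 TPM in numbers 1 to 3, and Ldha 1505 ± 82.3 and 1113 ± 61.9 TPM in that order.

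Of the HIF pathway's own regulators, 11 were fitted. In every library numbered 4, 4 of them were higher and 3 were lower, beside 17.9% and 19.0% of all genes. Their median log2 fold change was 0.267. The oxygen-sensing hydroxylase Egln1 averaged 393 ± 5.26 TPM in number 4 and 226 ± 13.8 TPM in numbers 1 to 3, and its relative Egln2 averaged 92.1 ± 1.45 and 130 ± 6.23 TPM in the same order. Vhl, the ubiquitin ligase subunit that binds hydroxylated HIF, averaged 96.7 ± 3.51 and 121 ± 5.45 TPM, and Cited2, a HIF-induced inhibitor of HIF, overlapped at 137 ± 4.79 and 150 ± 6.76 TPM. Named after their values were seen, Egln3 averaged 36 ± 1.62 TPM in number 4 and 6.89 ± 0.902 TPM in numbers 1 to 3, Hif3a 2.08 ± 0.414 and 0.31 ± 0.168 TPM, and Hif1a, the main oxygen-regulated subunit, 73.1 ± 8.1 and 59.3 ± 9.21 TPM with overlap. The HIF protein itself was not measured.

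The listed targets of the stress factor ATF4, none of which is among the 32 genes, were lower in number 4 where the libraries were apart. Of 10 fitted, 0 were higher in every library numbered 4 and 5 were lower, beside 17.9% and 19.0% of all genes. Their median log2 fold change was -0.435. Chac1, which degrades glutathione, averaged 688 ± 18.8 TPM in number 4 and 1218 ± 47.3 TPM in numbers 1 to 3, and the pseudokinase Trib3 averaged 565 ± 32.1 and 1140 ± 120 TPM in that order. Atf4 itself (2133 ± 41.1 and 2101 ± 17.8 TPM) and the asparagine synthetase Asns (1526 ± 29.7 and 1544 ± 80 TPM) overlapped. Any part of ATF4 in the values of any of the 32 genes, higher or lower, was not tested. Of the 10 neuroblastoma markers, 1 was higher and 6 were lower in every library numbered 4, beside the same shares of all genes. Their median was -0.278.

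**Figure D5:**
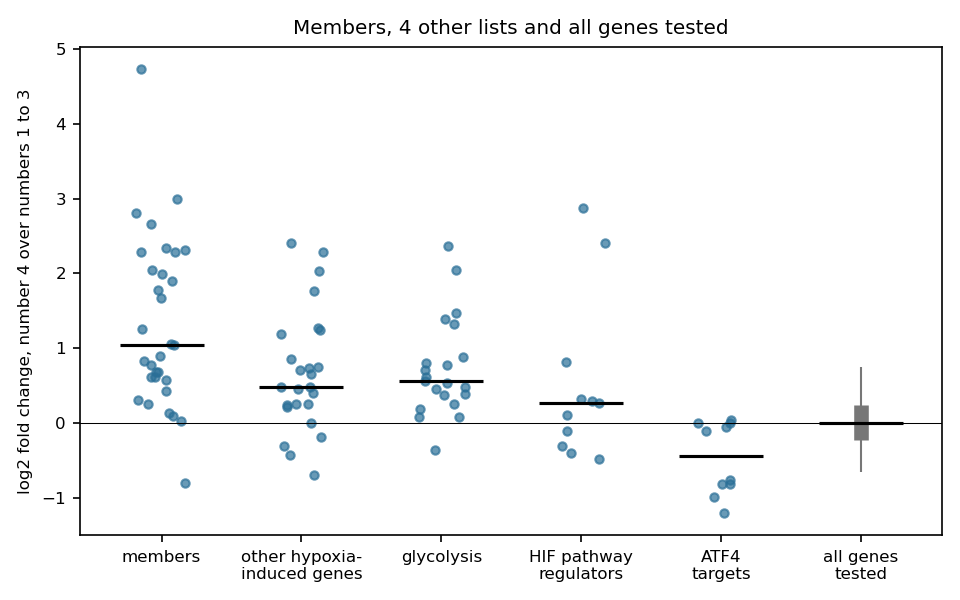
Log2 fold change of number 4 over numbers 1 to 3 for each gene (points, spread sideways for view) of the 31 genes fitted, marked members, and of 4 other lists, with the median as a line, beside all genes fitted (line 5th to 95th percentile, bar 25th to 75th). The medians are 1.04 for the members, 0.484 for the other hypoxia-induced genes, 0.559 for glycolysis, 0.267 for HIF pathway regulators, -0.435 for ATF4 targets and -0.0042 for all genes, whose 95th percentile is 0.75.

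The spread within sets of libraries was taken for the genes with a mean of at least 1 TPM. The coefficient of variation over the 3 libraries numbered 4, which come from different treatments, was 0.96% to 12.3% with a median of 4.23% over 28 genes. Over the 9 libraries numbered 1 to 3 it was 2.97% to 30.4% with a median of 9.25%. Adm, Rgs4 and Ndufa4l2 varied most among numbers 1 to 3, at 30.4%, 30.1% and 23.5%. In those libraries they had only 59 to 151, 61 to 142 and 84 to 198 counts. All 3 were far apart in number 4, but so were Ier3 and Plekha2, which varied by 6.33% and 11.9%. No test was made of these spreads, which rest on unequal numbers of libraries.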

How the data were processed

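The authors deposited raw counts and TPM values of 15767 genes in 12 libraries. The submitters' processing notes name GRCm39 as the build and, as tools, STAR, fastp, StringTie, featureCounts and edgeR; versions, strandedness and annotation are not stated there. Members were matched by symbol in the TPM table and joined to the counts by gene ID. Counts were fitted with edgeR 4.0.16 in R 4.3.3 (TMM, filterByExpr, robust quasi-likelihood test, Benjamini-Hochberg over all genes tested). The steps were first run on simulated counts with no number 4 difference. That run does not show what the fit with group only can find in these data. DESeq2 1.42.0, limma 3.58.1 and other settings were alternatives. Single values were also compared with an exact permutation test (SciPy 1.17.1). Total counts limit precision at low levels, and a count of 0 allows up to 3 counts (0.0404 to 0.0494 CPM), counting error only. No pair within a group was taken as a copy (chi-square over degrees of freedom 20.2 to 233). The members and lists were chosen with earlier results of these data known. The genes given in full were the 8 with the greatest positive log2 fold changes by number 4, at a mean of at least 1 TPM, those with the greatest negative ones (1 gene), and the 3 with the smallest p in each tested contrast. RefSeq promoters (26 of 32 stretches of these genes matched a GENCODE M21 transcript on the gene's strand) are on GRCm38, not the authors' build.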

Additional observations from a re-analysis of the deposited data

Results flagged for a closer look

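In groups of 4 libraries, a library was picked out where its gap to the nearest other was a larger part of the group's range than Dixon's 95% critical value, which chance does in about 1 in 20 groups. This held in 62 of 94 groups of a gene and a treatment, and the library was numbered 4 in 61 of them, or 64.9% of the groups. Over all genes fitted, any library was picked out in 8.24% of groups, and a library numbered 4 in 6.16%. The chance rate of about 1 in 20 is for any of the 4 libraries, and is smaller for a given number. The choice of genes was not independent of this difference, so these counts are a description and nothing is read from them. Among the genes given in full it held in 27 groups, all by a library numbered 4. Adm was picked out at 152 TPM in mimic 4, 147 TPM in inhibitor 4 and 152 TPM in control 4, and Ankrd37 at 79.6, 78.8 and 85.1 TPM in the same libraries. Ier3 was picked out at 1123, 1097 and 1099 TPM, Kbtbd11 at 6.7, 7.14 and 5.97 TPM, Plekha2 at 42, 43 and 41.7 TPM, Rgs4 at 8.66, 8.98 and 8.16 TPM, and Selenbp1 at 7.39, 6.84 and 7.37 TPM, each in mimic 4, inhibitor 4 and control 4. Ndufa4l2 was picked out in mimic 4 (30.7 TPM) and control 4 (27.2 TPM), and Hilpda in inhibitor 4 (96.7 TPM) and control 4 (86.6 TPM). Stc2 was picked out as low in control 4 (28.6 TPM), and Ppp1r3c as high in control 4 (1.68 TPM). What the number 4 libraries share beyond their number is not given in the labels.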

How the results depend on the processing

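In the 3 treatment contrasts and in number 3 against numbers 1 and 2, 0 of the 31 genes were called under every alternative run. The test of the number 4 ratio between treatments, chosen after seeing the data, called 0 of the 31 under 12 other settings, but with 1 library numbered 4 per treatment this does not show that the ratios were alike. Over all genes, where edgeR called 0, DESeq2 called 2, 0, 4 and 3 in mimic against control, inhibitor against control, mimic against inhibitor and number 3 against numbers 1 and 2, and edgeR called 265 in the last of these without control 2. The median log2 fold change of the 31 genes by number 4 was 0.997 with total counts and 1.2 within mimic. It was 1.13 on log2(TPM + 1) and 1.14 on log2(TPM + 0.1), where only the 28 genes with a mean of at least 1 TPM entered. These last medians cover fewer genes, so they cannot be set against the others as an effect of scale alone. The 25 genes higher in every library numbered 4 were 24 to 26 under 15 other settings. Ppp1r3c in mimic against control ran from -0.72 to 0.0092 with 1 library left out, and Fam13a in inhibitor against control from -0.27 to 0.02, both turning above 0 without control 4. The medians of the treatment contrasts had no stable sign when 1 library was left out, which also unbalances the numbers. In mimic against control the median was -0.356 without mimic 4, -0.0923, -0.0984 and -0.0783 without control 1, 2 and 3, and 0.558 without control 4. In inhibitor against control it was -0.353 without inhibitor 4, 0.0888, 0.125 and 0.111 without inhibitor 1, 2 and 3, 0.00128 without mimic 1, 0.52 without control 4, and -0.0802, -0.105 and -0.099 without control 1, 2 and 3. In mimic against inhibitor it was -0.383 without mimic 4, 0.143, 0.138 and 0.21 without mimic 1, 2 and 3, -0.0887, -0.115 and -0.129 without inhibitor 1, 2 and 3, and 0.385 without inhibitor 4. By number 4, Ppfia4 changed sign under 8 of 19 settings, Car9 under 2 of 19 and Plod1 under 1 of 21. With the number as a replicate block, the medians were 0.0331, -0.0161 and 0.0476 in the same 3 contrasts, with 0 genes called. Each library's deviations from its treatment mean were correlated across genes between libraries of different treatments. Same-numbered libraries gave 0.336 to 0.42 for number 4 but -0.0638 to 0.148 for the others. Libraries of different numbers gave -0.234 to 0.179. The numbers were therefore not taken to pair the samples, and the counts of numbers at which 1 group exceeded another are only a description. Car9, Ppfia4, Ppp1r3c and Rora are limited by depth.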
